A study of Saccharomyces cerevisiae with 12 samples.

Results

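Arginine synthesis and breakdown in budding yeast were followed through 9 of the 6412 genes counted: ARG1, ARG2, ARG3, ARG4, ARG7, ARG8 and CPA1, whose products make arginine, and CAR1 and CAR2, whose products break it down. The 9 genes were taken by name and were chosen by their measured counts in these samples, compared over the 3 groups and, within wild-type G1, between the first and the last pair of replicates (1 and 2, 3 and 4). Differences of the 9 genes between groups and between replicates are therefore given as a description, with standard errors and no p-value. How many of them passed the threshold of the fit over all genes is given as part of that description, beside the share of all genes that passed, and p-values are given only for other genes.

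Polyadenylated RNA was sequenced from 12 samples in 3 groups of 4 replicates. CDK/DDK bypass G1 cells (strain YKR1503) carried Dpb11, a phosphomimetic form of Sld2 and Dbf4 under a galactose-inducible promoter, were held in G1 with α-factor for 2.5 h and then given 2% galactose for 3 h with the arrest kept. Wild-type S cells (strain E3087) were arrested for 2.5 h and sampled 30 min after release into fresh medium. Wild-type G1 cells (strain YKR1500) were treated like the bypass cells and are labelled wild type. All 3 groups were of the W303 background and were grown in rich medium (raffinose at 2%, adenine added at 0.25 mM), which supplies amino acids.

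Each group is 1 strain. Wild-type S also differs from both G1 groups in medium, in time under α-factor and in its release from α-factor before sampling. Strain, medium, time, presence of α-factor and cell cycle phase therefore cannot be told apart. The a-cell genes MFA1, MFA2, STE2 and STE6 were detected in every sample. In wild-type S, MFA1 was 20.6-fold, MFA2 44.2-fold, STE2 42.4-fold and STE6 20.1-fold lower than in wild-type G1. The defining α-cell genes MF(ALPHA)1 and MF(ALPHA)2 had at most 14 counts in a sample and did not pass the filter on low counts. The other α-cell markers, STE3 and SAG1, were detected in every sample and were higher in bypass G1 than in wild-type G1, by 0.54 (adjusted p = 0.013) and 0.34 (adjusted p = 0.0033) on the log2 scale. All 6 S phase markers (RNR1, CLN2, CLB5, HTA2, HTB2 and POL1) were called higher in wild-type S when set against wild-type G1. There HTA2 was 83.4-fold and RNR1 16.3-fold higher. In bypass G1 against wild-type G1, 4 of these 6 were called higher: HTA2 (3.00-fold), RNR1 (1.53-fold), HTB2 (1.40-fold) and CLB5 (1.19-fold). Of the others, 1, CLN2, was called lower. Set against wild-type S, bypass G1 was called lower in all 6. The part of these marker differences in the results on the arginine genes was not tested. Counts on genes ranged between 8162140 and 10545835 per sample. Fewer cells that express a gene and less RNA per cell cannot be told apart in such bulk samples. Nothing in the labels says that replicates came from separate cultures, so p-values measure only the spread between these samples.

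Arginine is made from glutamate by way of ornithine: acetylated intermediates lead to ornithine in the mitochondrion, and in the cytosol carbamoyl phosphate is joined to it and arginine follows through citrulline and argininosuccinate. When arginine is plentiful, arginase splits it into ornithine and urea. In yeast the activator Gcn4 raises synthesis genes when amino acids are short, and a complex of Arg80, Arg81 and Mcm1, which needs Arg82, lowers ARG1, ARG3, ARG5,6 and ARG8 and raises CAR1 and CAR2 when arginine is present.

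The sequences ahead of 6 of the genes are shown as examples that carry the core letters of sites known for these regulators. Capitals mark TGACTC, the core letters of a Gcn4 site, or in CAR1 GCCGCC, the core of the URS1 element through which Ume6 represses. Each is read from the RefSeq R64 reference genome, the same sequence as sacCer3, on the strand of the gene, and not from the W303 strains themselves.
ARG1: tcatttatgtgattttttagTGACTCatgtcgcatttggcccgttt
ARG3: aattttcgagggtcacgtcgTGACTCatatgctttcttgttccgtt
ARG4: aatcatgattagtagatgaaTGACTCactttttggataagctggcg
CPA1: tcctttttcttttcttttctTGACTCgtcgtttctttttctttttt
CAR2: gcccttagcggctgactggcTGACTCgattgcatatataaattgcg
CAR1: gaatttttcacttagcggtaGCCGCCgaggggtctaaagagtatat

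These stretches lie at chr15:218846-218891 (ARG1, plus strand), chr10:268465-268510 (ARG3, plus strand), chr8:141556-141601 (ARG4, minus strand), chr15:882584-882629 (CPA1, plus strand), chr12:1012354-1012399 (CAR2, plus strand) and chr16:339769-339814 (CAR1, plus strand). The first capital lies 345 bases before the start codon in ARG1, 314 in ARG3, 179 in ARG4, 295 in CPA1, 127 in CAR2 and 155 in CAR1. TGACTC on either strand was found within 400 bases before the start codon in 8 of the 9 genes, CAR1 being the exception, and in 10.3% of 6020 protein-coding genes. The matches of ARG2, ARG7 and ARG8 are not shown, nor is a further match in ARG1, on the other strand, 274 bases before the start codon. The count was 7 of 9 within 300 bases, against 7.74% of all genes, and 5 of 9 within 250 bases, against 6.23%. GCCGCC on either strand was found within 400 bases in CAR1 alone of the 9, against 7.24% of all genes. GATAAG, a core read by the GATA factors of nitrogen regulation, was found on either strand within 400 bases in ARG1, ARG4 and CPA1, against 18.7% of all genes. None of the 3 motifs contains another, and a match is a description of the letters and not of a bound site.

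In CDK/DDK bypass G1 cells, 8 of the 9 genes were called different from wild-type G1 at an adjusted p-value below 0.1, where 54.5% of all 5662 genes tested were called. 5 were lower (ARG1, ARG2, ARG3, ARG4 and ARG7; 28.5% of all genes were called lower) and 3 were higher (CPA1, CAR1 and CAR2; 26.0% of all genes were called higher). The same 8 had replicates that did not overlap between the groups, which held for 44.0% of all genes. The median of the 9 log2 fold changes was -0.22, beside -0.02 over all genes tested. Since the choice of genes used this comparison, nothing is read from these counts. Scaled by the ERCC spike-ins, synthetic RNAs added to the total RNA, the median of all genes moved to 0.20 and ARG2, ARG4 and ARG7 were no longer called, at -0.018, -0.073 and -0.0043 (49.2% of all genes were called with this scaling).

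In wild-type S cells, 8 of the 9 genes were called different from wild-type G1, where 83.8% of all genes were called. The 5 lower genes were ARG1, ARG3, ARG4, ARG7 and ARG8 (43.3% of all genes were called lower), and the 3 higher genes were again CPA1, CAR1 and CAR2 (40.4% of all genes were called higher). Its reference samples are those used for bypass G1 above. The replicates of 8 genes did not overlap, which held for 73.9% of all genes. The median of the 9 log2 fold changes was -0.33, beside -0.02 over all genes tested.

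Set against wild-type S, bypass G1 cells differed in all 9 genes (85.1% of all genes were called). ARG1, ARG3, ARG4, ARG7 and ARG8 were higher (43.6% of all genes were called higher) and ARG2, CPA1, CAR1 and CAR2 were lower (41.5% of all genes were called lower). None of the 9 genes overlapped between these groups, which held for 81.7% of all genes, and their median log2 fold change was 0.35, beside 0.02 over all genes tested.

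**Figure D1:**
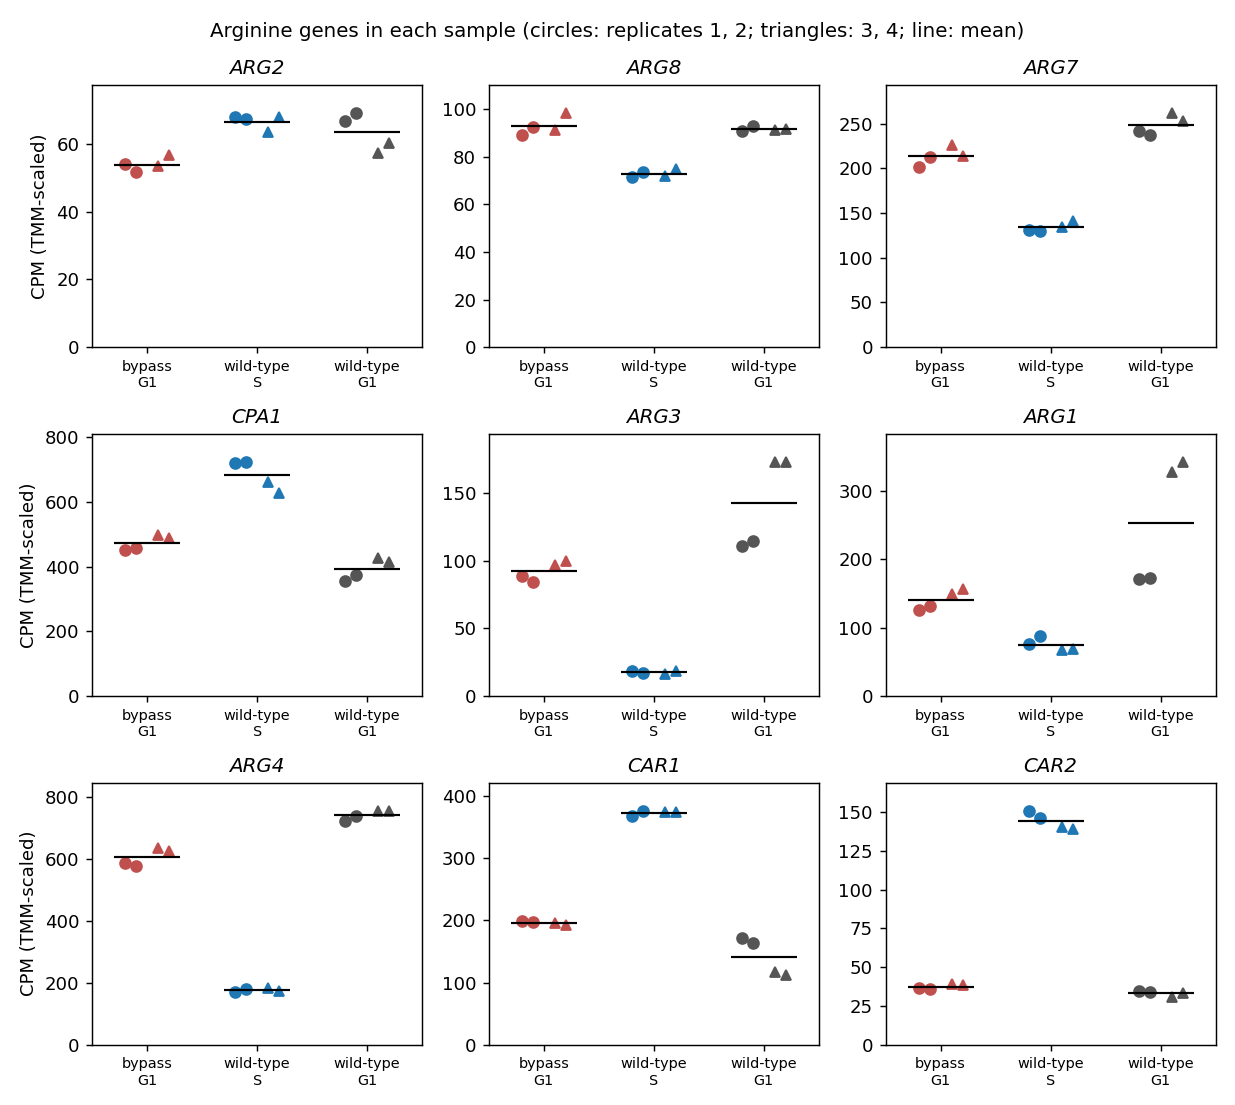
CPM (counts scaled to library size by TMM) of the 9 genes in each sample of CDK/DDK bypass G1, wild-type S and wild-type G1. Circles are replicates 1 and 2, triangles replicates 3 and 4, lines the group means (n = 4), and every axis starts at 0. ARG1, ARG3 and CAR1 split by replicate pair in wild-type G1, and ARG3 in wild-type S stands below 20 CPM in every sample.

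The genes are taken in the order of the pathway, with levels in CPM, read counts scaled to a common library size, which are comparable between samples but not between genes. ARG2 encodes acetylglutamate synthase, the entry enzyme. Its CPM were 54.0, 51.6, 53.4 and 56.7 in bypass G1, 67.9, 67.3, 63.5 and 67.9 in wild-type S, and 66.9, 69.2, 57.4 and 60.3 in wild-type G1. Bypass G1 lay below each of the other groups, with a log2 fold change of -0.23 ± 0.06 (SE) against wild-type G1, and wild-type S overlapped with wild-type G1 (0.07 ± 0.06).

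ARG8 encodes acetylornithine aminotransferase. It stood at 89.4, 92.5, 91.5 and 98.5 CPM in bypass G1, 71.4, 73.7, 71.8 and 75.0 CPM in wild-type S, and 90.9, 93.2, 91.4 and 91.7 CPM in wild-type G1. The G1 groups overlapped (0.02 ± 0.04, log2 fold change of bypass G1 over wild-type G1), and wild-type S was 1.26-fold lower than wild-type G1 without overlap.

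ARG7 encodes the mitochondrial ornithine acetyltransferase, which frees ornithine and hands the acetyl group back to glutamate. In bypass G1 it had 202, 212, 226 and 214 CPM, in wild-type S 131, 130, 135 and 141 CPM, and in wild-type G1 242, 238, 262 and 253 CPM. The groups stood apart in the order wild-type S, bypass G1, wild-type G1, with log2 fold changes against wild-type G1 of -0.22 ± 0.05 in bypass G1 and -0.89 ± 0.05 in wild-type S.

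CPA1 encodes a subunit of the carbamoyl phosphate synthetase that serves arginine. Its CPM were 450, 457, 496 and 489 in bypass G1, 719, 724, 660 and 629 in wild-type S, and 355, 374, 425 and 413 in wild-type G1. Of the 7 synthesis genes it was the one called higher in both comparisons with wild-type G1, by 1.21-fold in bypass G1 and 1.74-fold in wild-type S. Its leader holds a short upstream reading frame, YOR302W, whose peptide stalls ribosomes when arginine is present and exposes the CPA1 transcript to decay.

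YOR302W was counted as a gene of its own. Since it lies in the CPA1 transcript, its values are not a separate result and no p-value is given. Against wild-type G1 it was higher by 0.39 ± 0.12 on the log2 scale in bypass G1 and by 0.62 ± 0.12 in wild-type S. In TPM, a level scaled for gene length and library size, CPA1 over YOR302W was 0.911 to 1.08 in bypass G1, 1.13 to 1.33 in wild-type S and 1.02 to 1.19 in wild-type G1. YOR302W is only 78 bases long, against 1236 for CPA1, so scaling by length is rough and the ratio is compared only between groups. The wild-type groups overlapped in this ratio, and bypass G1 lay below wild-type S.

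ARG3 encodes ornithine carbamoyltransferase, which makes citrulline, and of the 9 genes it had the largest change in wild-type S against wild-type G1. It was at 88.5, 84.6, 97.0 and 100.2 CPM in bypass G1, 18.6, 16.8, 16.6 and 18.5 CPM in wild-type S, and 111, 115, 173 and 173 CPM in wild-type G1. The 3 groups did not overlap: wild-type S was 8.10-fold lower than wild-type G1 (log2 fold change -3.02 ± 0.16), and bypass G1 was 1.54-fold lower than wild-type G1 (-0.63 ± 0.14). The counts behind the lowest group were 132 to 191 per sample.

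ARG1 encodes argininosuccinate synthetase. Bypass G1 samples had 126, 131, 149 and 157 CPM, wild-type S samples 75.7, 87.2, 67.3 and 68.4 CPM, and wild-type G1 samples 172, 173, 328 and 343 CPM. Each bypass G1 sample lay above each wild-type S sample and below each wild-type G1 sample, but the distance to wild-type G1 depended on which wild-type G1 samples it was measured against. The log2 fold change against wild-type G1 was -0.85 ± 0.21 in bypass G1 and -1.77 ± 0.22 in wild-type S.

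ARG4 encodes argininosuccinate lyase, which releases arginine in the last step. It had 586, 578, 633 and 625 CPM in bypass G1, 171, 181, 182 and 174 CPM in wild-type S, and 721, 737, 753 and 755 CPM in wild-type G1. Its replicates lay closer together than those of ARG1 and ARG3, and wild-type S was 4.19-fold lower and bypass G1 1.22-fold lower than wild-type G1.

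CAR1 encodes arginase. Its CPM were 200, 198, 196 and 193 in bypass G1, 369, 377, 374 and 375 in wild-type S, and 172, 164, 117 and 113 in wild-type G1. The groups stood in the opposite order to ARG1, ARG3, ARG4 and ARG7: wild-type S was 2.64-fold and bypass G1 1.39-fold higher than wild-type G1.

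CAR2 encodes ornithine aminotransferase, which takes the ornithine left by arginase towards proline and glutamate. It was at 36.5, 35.9, 39.1 and 38.3 CPM in bypass G1, 151, 146, 140 and 139 CPM in wild-type S, and 34.4, 34.1, 30.8 and 33.3 CPM in wild-type G1. Wild-type S was 4.35-fold higher than wild-type G1, while bypass G1 was 1.13-fold higher, with 35.9 CPM as its lowest and 34.4 CPM as the highest wild-type G1 value.

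**Figure D2:**
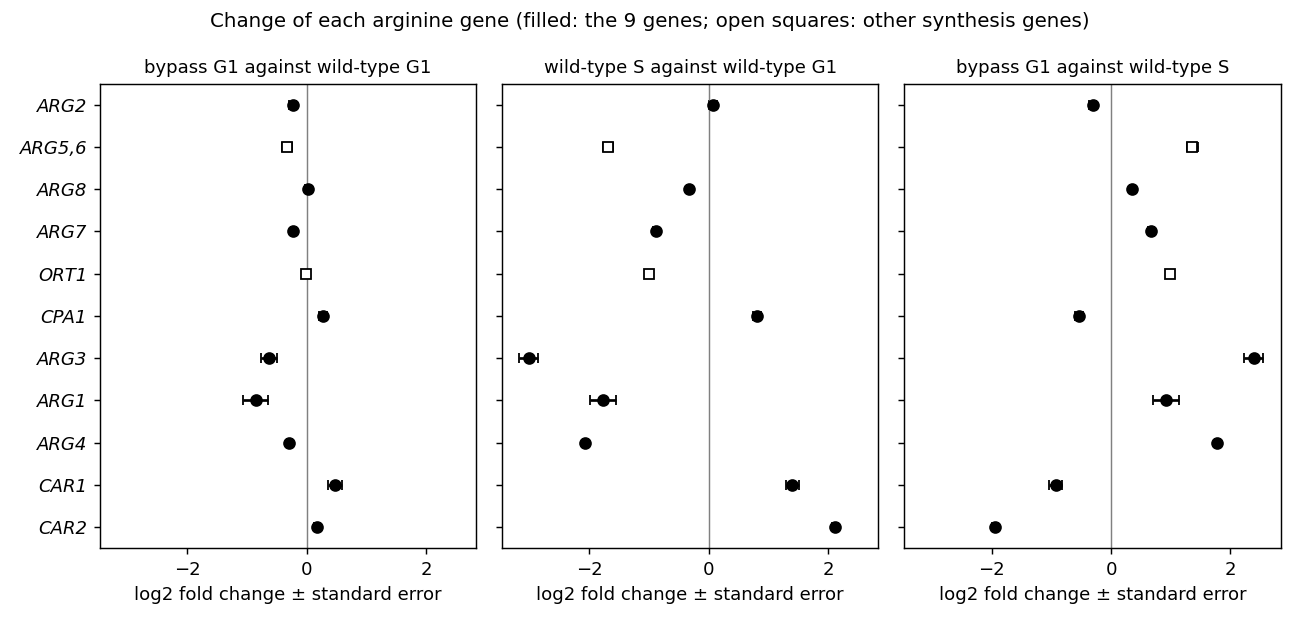
Log2 fold change ± standard error of the 9 genes (filled circles) and of ARG5,6 and ORT1 (open squares), in pathway order, in each of the 3 comparisons (edgeR, n = 4 per group). Against wild-type G1, ARG3 reached -3.02 and CAR2 2.12 in wild-type S, and all changes in bypass G1 lay between -0.85 and 0.47.

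Further synthesis genes were not among the 9 genes, and tests are given for them. All gene lists were chosen with earlier results of these data known, so p-values of listed genes are not free of that choice. ARG5,6 encodes the precursor of the acetylglutamate kinase and the reductase that follows it, and it fell in both comparisons with wild-type G1, by 0.32 ± 0.08 on the log2 scale in bypass G1 (adjusted p = 0.0067) and by 1.69 ± 0.09 in wild-type S (adjusted p = 8.1e-10). ORT1 encodes the carrier that takes ornithine out of the mitochondrion. It fell by 1.01 ± 0.06 in wild-type S (adjusted p = 4.1e-09), and its log2 fold change in bypass G1 was -0.02 ± 0.06 (adjusted p = 0.84).

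URA2, whose enzyme makes and uses carbamoyl phosphate for pyrimidines, rose by 0.32 ± 0.07 on the log2 scale in wild-type S (adjusted p = 6.9e-04) and had a log2 fold change of 0.06 ± 0.07 in bypass G1 (adjusted p = 0.50).

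Of the 6 regulators, 2 were called higher and 0 lower in bypass G1 (edgeR; GCN4 and MCM1), and 2 were called higher and 3 lower in wild-type S, each against wild-type G1. GCN4, which is controlled mainly at translation, so that its transcript level does not give its protein level, rose by 0.20 ± 0.05 on the log2 scale in bypass G1 (adjusted p = 0.0098) and by 0.24 ± 0.05 in wild-type S (adjusted p = 0.0010). MCM1 rose by 0.16 ± 0.04 in bypass G1 (adjusted p = 0.0073), and its log2 fold change in wild-type S was 0.04 ± 0.04 (adjusted p = 0.33).

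ARG80 fell by 0.42 ± 0.08 in wild-type S (adjusted p = 2.6e-04), ARG81 by 0.11 ± 0.04 (adjusted p = 0.015) and ARG82, which encodes an inositol polyphosphate kinase, by 0.80 ± 0.15 (adjusted p = 2.4e-04). In bypass G1 their log2 fold changes were -0.07, -0.02 and -0.17 (adjusted p = 0.46, 0.61 and 0.35). For ARG82 that value joins opposite ones: 0.26 with replicates 1 and 2 only and -0.53 with replicates 3 and 4 only. The split into pairs was found in these data, so both values are a description. UME6 rose by 1.07 ± 0.05 on the log2 scale in wild-type S (adjusted p = 1.3e-10), with 91.7, 86.2, 85.5 and 92.1 CPM there against 40.6, 42.4, 41.6 and 44.7 CPM in wild-type G1, and had a log2 fold change of -0.10 ± 0.05 in bypass G1 (adjusted p = 0.10). CAR1, which carries the URS1 core, was high in the same wild-type S samples as UME6. So were CAR2 and CPA1, which have no such core within 400 bases, and a link to UME6 was not tested.

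Of 9 further genes for the use of the breakdown products, 3 were called higher and 3 lower in bypass G1, and 2 higher and 5 lower in wild-type S, each against wild-type G1. The largest change among them was that of DAL80, a GATA repressor of nitrogen catabolic genes, which fell by 2.12 ± 0.09 on the log2 scale in wild-type S (adjusted p = 1.9e-10) and by 0.63 ± 0.08 in bypass G1 (adjusted p = 6.3e-05). DUR3, the urea transporter, fell by 1.44 ± 0.16 in wild-type S (adjusted p = 2.1e-06), and DUR1,2, whose product splits urea, was higher in bypass G1 than in wild-type S by 1.05 ± 0.07 (adjusted p = 8.8e-09). PUT1, the proline oxidase, rose by 0.77 ± 0.09 in bypass G1 against wild-type G1 (adjusted p = 2.6e-05). The urea genes were thus low in wild-type S, where CAR1 and CAR2 were high.

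Of 9 transport genes, 8 passed the filter on low counts. In bypass G1, 3 were called higher and 2 lower, and in wild-type S 3 were called higher and 4 lower, each against wild-type G1. RTC2, also known as YPQ3, one of the vacuolar basic amino acid transporters of its family, fell by 1.21 ± 0.15 on the log2 scale in wild-type S (adjusted p = 7.1e-06). YPQ2 of the same family was lower in bypass G1 than in wild-type S, with a log2 fold change of -1.01 ± 0.07 (adjusted p = 8.4e-09).

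Lists of other amino acid genes are given beside the arginine genes as a description, and the difference between lists was not tested. Of 10 genes of branched-chain synthesis, 1 was called higher and 7 lower in bypass G1, and 9 higher and 1 lower in wild-type S, each against wild-type G1, with median log2 fold changes of -0.48 and 0.49. Of 37 further amino acid genes known as Gcn4 targets, 6 were called higher and 18 lower in bypass G1, and 17 higher and 12 lower in wild-type S, with medians of -0.11 and 0.02. Beside these, the 7 arginine synthesis genes had medians of -0.23 in bypass G1 and -0.89 in wild-type S.

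**Figure D3:**
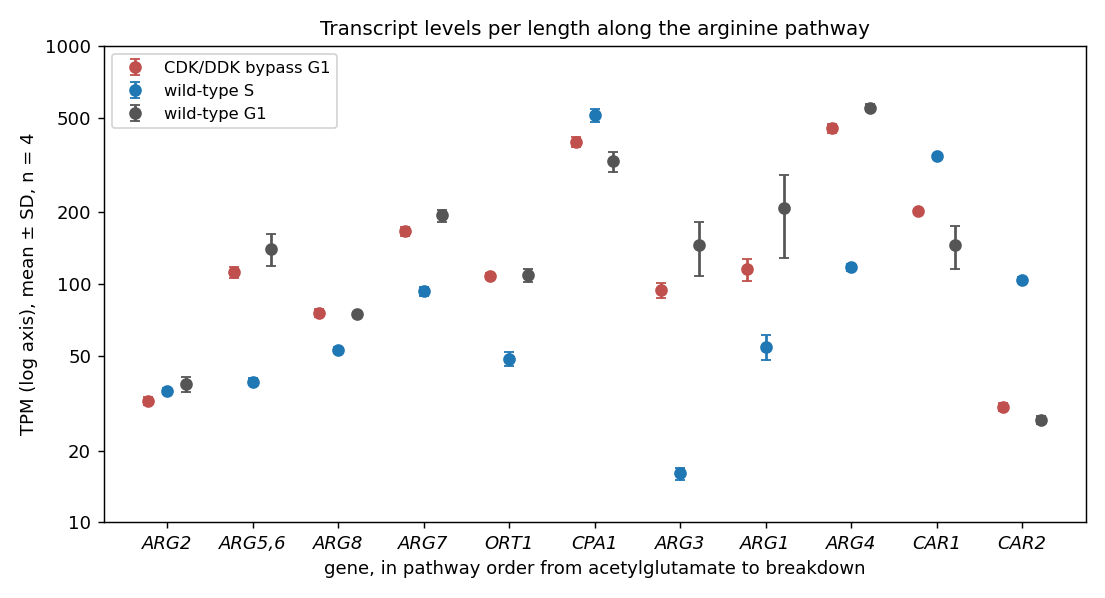
Transcript levels per length (TPM, log axis) of the 9 genes and of ARG5,6 and ORT1 in pathway order, as mean ± SD of 4 replicates in CDK/DDK bypass G1, wild-type S and wild-type G1. ARG4 is the highest of the 9 genes in both G1 groups, CPA1 in wild-type S, and ARG3 falls to 16.0 TPM in wild-type S.

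Levels can be set between genes in TPM. In bypass G1 the order of the means was ARG4 (450.1 TPM), CPA1 (396), CAR1 (203), ARG7 (167), ARG1 (115), ARG3 (94.2), ARG8 (75.6), ARG2 (32.4) and CAR2 (30.4), and only ARG2 and CAR2 overlapped with their neighbour. In wild-type S it was CPA1 (511 TPM), CAR1 (345), ARG4 (118), CAR2 (104), ARG7 (93.6), ARG1 (54.6), ARG8 (53.1), ARG2 (35.7) and ARG3 (16.0), with overlap between ARG1 and ARG8 alone. In wild-type G1 it was ARG4 (551 TPM), CPA1 (328), ARG1 (209), ARG7 (194), ARG3 (146), CAR1 (146), ARG8 (74.7), ARG2 (38.0) and CAR2 (26.9), where ARG1 overlapped with ARG7 and ARG3 with CAR1. The arginase gene thus ranked above every synthesis gene but ARG4 and CPA1 in bypass G1, above every synthesis gene but CPA1 in wild-type S, and below ARG4, CPA1, ARG1 and ARG7 in the wild-type G1 means.

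Ratios within a sample show how unequal the levels became. CPA1 over ARG3 in TPM was 4.01 to 4.44 in bypass G1, 28.0 to 35.5 in wild-type S and 1.97 to 2.68 in wild-type G1. The 3 groups did not overlap in this ratio, whose genes moved in opposite directions, nor in ARG3 over CAR1. Elsewhere the G1 groups overlapped. ARG3 over ARG2 was 2.78 to 3.08 in bypass G1 and 2.81 to 5.13 in wild-type G1. ARG1 over ARG4 was 0.236 to 0.277 in bypass G1 and 0.259 to 0.500 in wild-type G1, and CAR2 over CAR1 overlapped too. ARG1 over CAR1 in TPM was 0.499, 0.525, 0.603 and 0.645 in bypass G1, 0.163, 0.184, 0.143 and 0.145 in wild-type S, and 0.790, 0.837, 2.23 and 2.41 in wild-type G1. In wild-type G1, replicates 1 and 2 held less ARG1 than CAR1 transcript per length and replicates 3 and 4 held more.

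That split ran through several of the 9 genes. In wild-type G1, ARG1 was 1.94-fold and ARG3 1.53-fold lower in replicates 1 and 2 than in replicates 3 and 4, and CAR1 was 1.46-fold higher in replicates 1 and 2. On the scale of log2(CPM + 1), these differences were -0.95 for ARG1, -0.61 for ARG3 and 0.55 for CAR1, with an SD within pairs of 0.03 for ARG1 and ARG3 and 0.04 for CAR1. The other 6 genes differed by less: ARG2 by 0.21, CPA1 by -0.20, ARG7 by -0.10, CAR2 by 0.09, ARG4 by -0.05 and ARG8 by 0.01.

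At a fold of 1.5 without overlap, 2 of the 9 genes stood apart between the wild-type G1 pairs, both lower in replicates 1 and 2, and 6.94% of all genes did so (2.84% lower in replicates 1 and 2, 4.10% higher). CAR1 lay just outside that fold. The pairs did not overlap in 8 of the 9 genes, ARG8 being the exception, and in 73.5% of all genes. This comparison was also used in choosing the genes, and nothing is read from the counts. What the pairs of replicates share is not given in the labels.

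In the other groups the same split was smaller for ARG1, ARG3 and CAR1, but not for every gene. ARG4 differed between the pairs by -0.11 in bypass G1 and -0.05 in wild-type G1, and ARG8 by -0.06 in bypass G1 and 0.01 in wild-type G1. In bypass G1, ARG1 differed between the pairs by -0.25, ARG3 by -0.19 and CAR1 by 0.03 on the log2 scale, and 0 of the 9 genes reached a fold of 1.5 (0.106% of all genes did), though the pairs did not overlap in 7 of the 9 (45.0% of all genes). In wild-type S, ARG1 differed by 0.26, ARG3 by 0.01 and CAR1 by -0.01, and 0 of the 9 genes reached that fold (1.02% of all genes did), and the pairs did not overlap in 4 of the 9 (53.5% of all genes). Of the further synthesis genes and regulators, ARG5,6 differed by -0.35 and ARG82 by -0.63 between the wild-type G1 pairs.

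**Figure D4:**
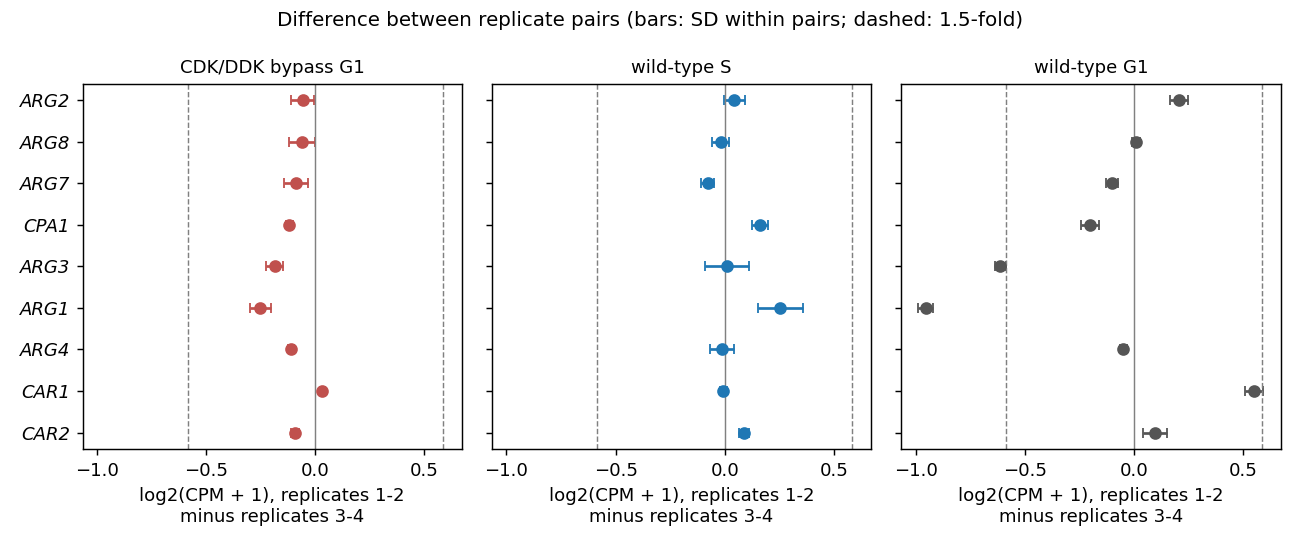
Mean log2(CPM + 1) of replicates 1 and 2 minus that of replicates 3 and 4 for the 9 genes in CDK/DDK bypass G1, wild-type S and wild-type G1. Bars give the SD within pairs, and dashed lines mark 1.5-fold. ARG1 (-0.95) and ARG3 (-0.61) pass the line in wild-type G1, and no gene passes it in the other groups.

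The size of the change in bypass G1 moved with the wild-type G1 pair it was set against. From mean log2(CPM + 1), the log2 difference of bypass G1 from wild-type G1 in ARG1 was -0.30 with replicates 1 and 2 as wild-type G1 and -1.25 with replicates 3 and 4, without overlap in either case. ARG3 gave -0.29 and -0.90, and CAR1 gave 0.22 and 0.77, likewise without overlap. ARG4, at -0.27 and -0.32, hardly depended on the pair. In wild-type S the same genes kept their direction against either pair, with -2.61 and -3.23 for ARG3 and 1.15 and 1.70 for CAR1. With counts summed within pairs, which leaves 2 samples per group, 3 of the 9 genes (ARG3, ARG4 and ARG7) were called in bypass G1 against wild-type G1, where 25.5% of all genes were. For wild-type S the count was 8 of the 9 genes, where 73.9% of all genes were called. Among the other synthesis genes, regulators and URA2, ARG5,6, GCN4 and MCM1 then missed the threshold in bypass G1 against wild-type G1 (adjusted p = 0.13, 0.22 and 0.17). The breakdown and transport genes outside the 9 were not followed with summed counts. YOR302W, part of the CPA1 transcript, was not called either.

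Profiles over the 12 samples were compared with the mean log2(CPM + 1) of the 7 synthesis genes. The 5 genes outside the 9 with the highest Pearson r were PEX27 (0.997), ARG5,6 (0.996), HIS5 (0.996), NRG1 (0.995) and FRQ1 (0.995). Within the 7 genes, r with that mean was 0.996 for ARG3 and 0.951 for ARG1, while ARG2 had -0.46 and CPA1 -0.91. Each of the 7 is itself part of that mean, so its r is a description only. The mean therefore describes ARG1, ARG3, ARG4, ARG7 and ARG8, and not the whole set. For CAR1 the most similar genes were MNN5 (0.994), LIA1 (0.994) and TMA19 (0.993). These samples fall into 3 groups, so genes whose group means have a similar order and spacing have a high r.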

How the data were processed

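The members and all gene lists were chosen with earlier results of these data known. Polyadenylated RNA of 12 samples was sequenced as 42-base read pairs, aligned by the authors to sacCer3 with STAR 2.7.10a, handled with SAMtools 1.12 and counted per gene with strand by HTSeq 2.0.1, leaving out read pairs with more than 1 position. The authors deposited raw counts, with ERCC spike-ins counted beside the genes. Of the 6504 features listed, 92 were spike-ins, and 9.28% to 11.5% of counts per sample were not assigned to a gene and were left out. Groups and replicate numbers come from the sample titles.

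Counts were tested with edgeR 4.0.16 in R 4.3.3 (filterByExpr at a minimum count of 10, 5662 genes, TMM, glmQLFit and glmQLFTest, all 12 samples, 3 groups) with the Benjamini-Hochberg adjustment over all genes tested and a threshold of 0.1 on the adjusted p-value. All adjusted p-values are from this test, apart from those given with counts summed within pairs, which come from the same test on the summed counts. Standard errors come from the F statistic of the main fit. CPM are counts scaled by the TMM-adjusted library size. TPM were computed from counts and RefSeq R64 gene lengths over the 6098 genes matched. Replicates 1 and 2 were set against 3 and 4 as the difference of mean log2(CPM + 1), without a test. The fit was tested on simulated data.

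Named were the 9 genes, the other synthesis genes, regulators and carbamoyl phosphate genes, those breakdown and transport genes called with a log2 fold change beyond 1 in a comparison, and the genes most alike in profile. Of the branched-chain and other Gcn4 lists only counts and medians are given. One further gene is not reported here. The motif windows were chosen after seeing the data.

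Alternatives were DESeq2 1.42.0, RLE, library totals and spike-in totals for scaling, other filters, an adjusted p-value below 0.05, fits of only the groups compared, the replicate block, counts summed within pairs, single pairs, and leaving out each sample. Deviations from the group mean correlated across genes between same-numbered samples by 0.177, 0.104, 0.103 and 0.160 (replicates 1 to 4) for wild-type S with wild-type G1, by 0.071, 0.227, 0.134 and 0.199 for bypass G1 with wild-type G1, and by at most 0.013 for bypass G1 with wild-type S. These values were of similar size in both comparisons with wild-type G1, and the labels do not say that equal numbers are pairs. The main fit used no replicate block, which was run as an alternative. Python 3.11.15 with pandas 2.3.3 and matplotlib 3.10.9 was used for tables and figures.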

Additional observations from a re-analysis of the deposited data

Results flagged for a closer look

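One value stood far from the others of its group: ARG2 had 63.5 CPM in wild-type S replicate 3, where the other 3 replicates lay between 67.3 and 67.9 CPM. It was 1 of 27 sets of 4 replicates examined, and chance alone gives about 1.35 such values.

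In 3 genes the replicate pairs lay apart in opposite directions in different groups, a difference that was not tested. The difference of replicates 1 and 2 minus replicates 3 and 4 in log2(CPM + 1) was -0.25 in bypass G1, 0.26 in wild-type S and -0.95 in wild-type G1 for ARG1. For CPA1 it was -0.12 in bypass G1, 0.16 in wild-type S and -0.20 in wild-type G1. For CAR2 it was -0.094 in bypass G1, 0.087 in wild-type S and 0.095 in wild-type G1.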

How the results depend on the processing

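Adding up the counts of each replicate pair left 2 samples per group. It lowered the calls in bypass G1 against wild-type G1 to 1477 genes and 3 of the 9 arginine genes, in place of 3083 and 8. The cause was not tested. At a fold of 2, 73 genes and 0 of the 9 differed between the wild-type G1 pairs, in place of 393 and 2. Spike-in totals moved the median over all genes in bypass G1 against wild-type G1 to 0.20, in place of -0.02, and the share of higher genes among those called to 91.0%, in place of 47.7%; there ARG2 (-0.018), ARG4 (-0.073) and ARG7 (-0.0043) were no longer called and ARG8 (0.24) was, while ARG1 (-0.62), ARG3 (-0.40), CPA1 (0.49), CAR1 (0.68) and CAR2 (0.39) kept their calls. Direction in bypass G1 against wild-type G1 changed for ORT1 (0.20), ARG80 (0.14), ARG81 (0.19), ARG82 (0.048) and UME6 (0.12) with spike-in totals, for ARG8 with library totals (-0.0031), with replicates 1 and 2 only (-0.0085) and without bypass G1 replicate 4 (leaving out each sample gave -0.012 to 0.035), for ORT1 with replicates 3 and 4 only (0.093), without bypass G1 replicate 1 (0.0058) and without wild-type G1 replicate 2 (leaving out each sample gave -0.054 to 0.024), and for ARG82 (0.26) and URA2 (-0.047) with replicates 1 and 2 only. In wild-type S against wild-type G1 it changed for ARG2 (-0.0026) and MCM1 (-0.028) with library totals and for MCM1 (-0.024) with replicates 1 and 2 only, and in bypass G1 against wild-type S for GCN4 with library totals (0.0068) and spike-in totals (0.092). None of these was called in the analysis reported above. Single genes were followed only among the 9 genes, the other synthesis genes, the regulators and the carbamoyl phosphate genes. With each sample left out in turn, 2704 to 3164 genes were called in bypass G1 against wild-type G1 (8 of the 9 each time), 4646 to 4731 in wild-type S against wild-type G1 (8 to 9), 4717 to 4869 in bypass G1 against wild-type S (9 each time), and 382 to 450 genes passed the fold between the wild-type G1 pairs (2 of the 9 each time). With the replicate block, 3110 genes were called in bypass G1 against wild-type G1 and 4760 for wild-type S against the same samples, with 8 of the 9 in each, and ARG1 was at -0.81 and -1.71; the block changed no call of the 9 genes in these comparisons. Depth does not limit the 9 genes, whose lowest count in a sample was 132.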
